A study of Mus musculus with 121 samples.

Results

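Proteasome genes were taken as every gene whose symbol begins with Psma, Psmb, Psmc, Psmd, Psme, Psmf or Psmg followed by a digit, apart from the immunoproteasome genes Psmb8, Psmb9 and Psmb10. The rule found 46 genes on 52 probes of a 1-colour CodeLink array, and 44 of them were among the 12962 genes that could be tested. They were measured in 6 mouse tumours transplanted to the hind leg of male C3H/HeMs mice: the fibrosarcomas were nfsa and one that radiation had induced, mmca and mca4 were mammary carcinomas, and scc7 and nrs1 squamous cell carcinomas. Gamma rays were given locally as single doses of 30, 50 or 70 Gy, and carbon ions as 30 Gy. Gamma rays account for 81 arrays and carbon ions for 40. Each combination of tumour, beam, dose and time formed a group, 54 in all, with 2 arrays in 41 of them and 3 in 13.

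At day 1 the gamma experiment held arrays of 30, 50 and 70 Gy and of unirradiated tumour, 2 each, for the radiation-induced fibrosarcoma, nfsa, mmca and mca4. Later gamma arrays covered 30 Gy at day 8 and day 16 and 50 Gy at day 22 in the radiation-induced fibrosarcoma, 30 and 50 Gy at days 4 and 9 in nfsa, 30 Gy at day 9 and 50 Gy at day 19 in mmca, and 30 Gy at day 11 and 50 Gy at days 25 and 41 in mca4. mmca also had an unirradiated group at day 9. scc7 (30 Gy at day 8, 50 Gy at days 23 and 35) and nrs1 (30 Gy at day 8, 50 Gy at day 15) had no unirradiated arrays. Carbon ions were followed in mmca and mca4 at hour 6 and at days 1, 3, 5 and 20, against unirradiated arrays of hour 0, and in the other 4 tumours at day 5 and a last time of day 20, or day 42 in scc7. The labels do not say whether arrays of a group are separate animals, so the p-values rest on differences among arrays that may be technical only. Each tumour is 1 transplanted line, so nothing here shows how tumours of one class vary.

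Values are log2 of array intensity, and a change of 1 on this scale is a 2-fold change. Probes differ in how brightly they bind, so levels were compared between samples for 1 gene and never between genes. A gene was called higher or lower at an adjusted p under 0.05 in the limma model, and changes carry the standard error (SE) of that model. The percentage of all genes called in the same direction stands beside the first count of proteasome genes in each comparison. With 1 value per group in place of single arrays, 102 of the 117 changes of named genes tested that way lost their call. That fit takes its spread from an additive model of group means and has fewer degrees of freedom. It therefore cannot show whether arrays of a group are independent, which the calls given here assume. Whole tumours were measured, so fewer cells of a type and less RNA per cell cannot be told apart.

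The proteasome is the barrel-shaped protease that degrades proteins tagged with ubiquitin. Its core is built of rings of alpha subunits, which gate the entrance, and rings of beta subunits, of which Psmb5, Psmb6 and Psmb7 carry the chymotrypsin-like, caspase-like and trypsin-like active sites. A regulatory cap binds the core: its ATPases (Psmc) unfold substrates, and its other subunits (Psmd) hold ubiquitin receptors, scaffold proteins and the deubiquitinase Psmd14. The activators Psme1 and Psme2 form an alternative cap that interferon-gamma induces, Psme3 forms a nuclear one, and Psmg proteins are chaperones that assemble the core. The transcription factor Nfe2l1 raises proteasome genes when the proteasome is inhibited, through antioxidant response elements in their promoters.

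By role, the 46 genes were 8 alpha subunits (Psma1 to Psma8), 8 beta subunits (Psmb1 to Psmb7 and Psmb11), 6 cap ATPases (Psmc1 to Psmc6), and 11 other cap subunits (Psmd1, Psmd2, Psmd3, Psmd4, Psmd6, Psmd7, Psmd8, Psmd11, Psmd12, Psmd13 and Psmd14). There were also 7 assembly chaperones (Psmg1 to Psmg4 for the core, and Psmd5, Psmd9 and Psmd10 for the cap), 3 activators (Psme1, Psme2 and Psme3) and the inhibitor Psmf1. 2 genes that the rule catches are no subunits: Psmc3ip encodes a meiotic recombination factor and Psme3ip1 a protein that binds Psme3. Psmb11, the thymus form of a catalytic subunit, and Psmf1 were too dim to be tested. Psma8, the testis form of an alpha subunit, passed the filter but lay close to its limit, with group means between -1.65 and -0.26 log2 against a limit of -1.08 for the mean over arrays. The left-out genes Psmb8 and Psmb9 were measured and are given below as a comparison.

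Promoter sequence was at hand for 38 of the 46 genes (RefSeq, mouse build GRCm38.p6). In the 250 bases before the start, the antioxidant response element letters TGACNNNGC (N is any base, either strand) were found for 5 of 38 genes (13.2%), against 10.1% of 27025 promoters in the table. The box CCAAT was found for 14 genes (36.8%, against 34.5% of all promoters), among them 5 of 7 alpha subunits. The ETS factor letters CCGGAAG were found for 11 genes (28.9%, against 7.05%), 8 of them cap subunit genes and none a core gene, and the GC box GGGCGG for 20 (52.6%, against 32.9%). A match describes letters and is no proof of binding, and CCGGAAG and GGGCGG are common in GC-rich promoters. The 120 bases before the start are shown for 4 genes on which the results below turn, each with 1 match in capitals: the antioxidant response letters of the catalytic genes Psmb5 (chr14:54617996-54618115, minus strand) and Psmb6 (chr11:70525237-70525356, plus strand), the CCAAT box of Psma1 (chr7:114276117-114276236, minus strand) and the ETS letters of the chaperone gene Psmg1 (chr16:95990961-95991080, minus strand).
Psmb5: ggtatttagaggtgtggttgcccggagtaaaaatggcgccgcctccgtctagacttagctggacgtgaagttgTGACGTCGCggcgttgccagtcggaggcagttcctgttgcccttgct
Psmb6: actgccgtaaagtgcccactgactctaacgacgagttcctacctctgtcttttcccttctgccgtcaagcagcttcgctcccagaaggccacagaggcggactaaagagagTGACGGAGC
Psma1: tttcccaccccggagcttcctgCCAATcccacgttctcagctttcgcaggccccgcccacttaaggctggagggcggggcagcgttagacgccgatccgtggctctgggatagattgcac
Psmg1: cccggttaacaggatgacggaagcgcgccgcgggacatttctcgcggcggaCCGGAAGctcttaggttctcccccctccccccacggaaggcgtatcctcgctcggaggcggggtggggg
The match begins 47 bases before the start in Psmb5, 9 in Psmb6, 98 in Psma1 and 69 in Psmg1, counted from the start used for the promoter sequences. For Psmb6 the RefSeq gene begins earlier, at chr11:70525324, within the stretch shown, so its match lies after that gene start.

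Across groups, the proteasome genes differed in how far they moved. Between arrays of 1 group the median gene had an SD of 0.144 log2, and the difference between a gene's highest and lowest group mean lay between 0.94 (Psmd12) and 3.02 (Psme3ip1), with 2.69 for Psmd2, a scaffold and ubiquitin receptor of the cap. As a description only, each gene was set against the mean of the other 43 over groups. Pearson's r lay at 0.57 to 0.81 over the 34 gamma groups and at 0.66 to 0.92 over the 20 carbon groups for the alpha subunits other than Psma8, which gave -0.076 and -0.28. Psmd2 was low with 0.049 and -0.20, as were Psme3ip1 with 0.0037 and -0.065 and Psmd5 with 0.14 and -0.093. Some genes were low in 1 experiment only: Psmd13 gave 0.58 over gamma and -0.44 over carbon groups, and Psmg3 0.053 and 0.72. Groups share tumours and array brightness, so these values carry no test.

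Of the 44 genes, 18 had their highest group mean in carbon-irradiated nrs1 at day 20. The lowest group mean lay in carbon-irradiated nfsa at day 5 for 10 genes, in unirradiated mmca at day 1 for 9 and in unirradiated mca4 at day 1 for 8. These ranks are on the deposited scale, where arrays differ in brightness. The 90th percentile of log2 intensity was 5.47 in the nrs1 group and 5.08 in the nfsa group, and its part was not tested. The mmca pair is the control of all day 1 gamma values in mmca. Against unirradiated mmca of day 1, unirradiated mmca of day 9 had 11 proteasome genes called higher (6.85% of all genes) and 0 lower (14.4% of all genes), with a median difference of 0.17. Psma1 had 6.80 and 6.62 log2 at day 9 and 5.91 and 6.07 at day 1, a difference of 0.72 ± 0.14 (SE, adjusted p = 6.24e-05). The numbers of calls in mmca at day 1, and the genes named there, are given against both controls.

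Among unirradiated arrays of the gamma experiment, the fibrosarcomas had higher levels of most standard proteasome genes than the mammary carcinomas. They had lower levels of the immunoproteasome genes Psmb8 and Psmb9. Of the 44 genes, 28 were higher in the fibrosarcomas (41.3% of all genes) and 1 lower (26.1% of all genes), with a median difference of 0.29 against 0.12 for all genes. The 28 included 7 of 8 alpha, 5 of 7 beta and 12 of 17 cap subunits. After quantile normalization 23 were higher (41.3% of all genes) and 6 lower (26.8%). When probes without a value were also given the lowest intensity allowed, 16 were higher and 4 lower, with no share of all genes computed. The median difference was 0.24 without the second unirradiated mca4 array and 0.38 without the first. For mmca the unirradiated pair of day 1 was used, and the pair of day 9 was not tested in its place. The median of the 44 genes per array averaged 6.06 in the radiation-induced fibrosarcoma, 6.07 in nfsa, 5.64 in mmca and 5.85 in mca4. Unirradiated arrays of the carbon experiment gave 6.19 in mmca and 6.01 in mca4. That experiment held no unirradiated fibrosarcoma, so the difference could not be tested there. Psmd14, the deubiquitinase of the cap, had 5.90 and 6.09 in the radiation-induced fibrosarcoma and 6.61 and 6.45 in nfsa, against 5.66 and 5.57 in mmca and 5.54 and 5.16 in mca4. All 4 fibrosarcoma arrays lay above all 4 mammary arrays, and the difference was 0.78 ± 0.094 (SE, adjusted p = 1.8e-11). The cap scaffold genes Psmd8 and Psmd13 differed by 0.71 ± 0.10 (SE, adjusted p = 1.9e-09) and 0.72 ± 0.10 (SE, adjusted p = 4.18e-09).

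Psmb5 differed by 0.61 ± 0.11 (SE, adjusted p = 1e-06) between the fibrosarcomas and the mammary carcinomas, but its groups overlapped: it had 6.76 to 7.21 in the fibrosarcomas, against 6.96 and 6.92 in mca4 and 5.75 and 5.85 in mmca. Psmb6 was higher by 0.40 ± 0.11 (SE, adjusted p = 0.000868) and Psme3 by 0.39 ± 0.12 (SE, adjusted p = 0.00249). Psme3ip1 was the 1 gene called lower, at -0.62 ± 0.15 (SE, adjusted p = 0.000263). The immunoproteasome genes ran the other way, with -1.55 ± 0.13 (SE, adjusted p = 4.26e-18) for Psmb8 and -1.67 ± 0.17 (SE, adjusted p = 9.46e-14) for Psmb9, and arrays that did not overlap. Psme1 and Psme2, which interferon-gamma induces as it does Psmb8 and Psmb9, gave -0.21 (adjusted p = 0.0645) and -0.068 (adjusted p = 0.612).

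Cell type markers also differed between these tumours. Epithelial markers were lower in 5 of 5 that had values in all these groups (median -4.75), with summed intensities of 2.39 to 4.92 in the fibrosarcomas, against 158 to 234 in the mammary carcinomas, which matches the labelled tumour types. Macrophage markers were higher in 10 of 10 (summed intensity 679 to 839, against 124 to 420) and skeletal muscle markers in 10 of 11 (468 to 639, against 14.8 to 485). No summed marker value lay at the floor, and the part of these cells in the proteasome differences was not tested.

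At day 1 after gamma rays, alpha subunit genes and the interferon-inducible activator genes rose in the mean of the 4 tumours, while some beta, cap and chaperone genes fell. Over 24 irradiated and 8 unirradiated arrays, 20 of 44 genes rose (24.8% of all genes) and 8 fell (34.7% of all genes), with a median change of 0.089 against -0.038 for all genes. Those that rose were 7 of 8 alpha subunits, 3 of 7 beta subunits, 4 of 6 cap ATPases, 2 of 11 other cap subunits, 1 of 7 chaperones, 2 of 3 activators and Psme3ip1. The genes that fell were 3 beta subunits, 2 other cap subunits, 2 chaperones and Psme3. The 20 rises were 13 without the second unirradiated mca4 array, and 12, with 4 alpha subunits among them, when mmca was set against its unirradiated arrays of day 9. Psmb8 and Psmb9 changed by 0.32 ± 0.074 (SE, adjusted p = 0.000153) and 0.29 ± 0.10 (SE, adjusted p = 0.0115). The map of changes by role shows the alpha rows red in mmca and mca4 and pale in nfsa.

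**Figure D1:**
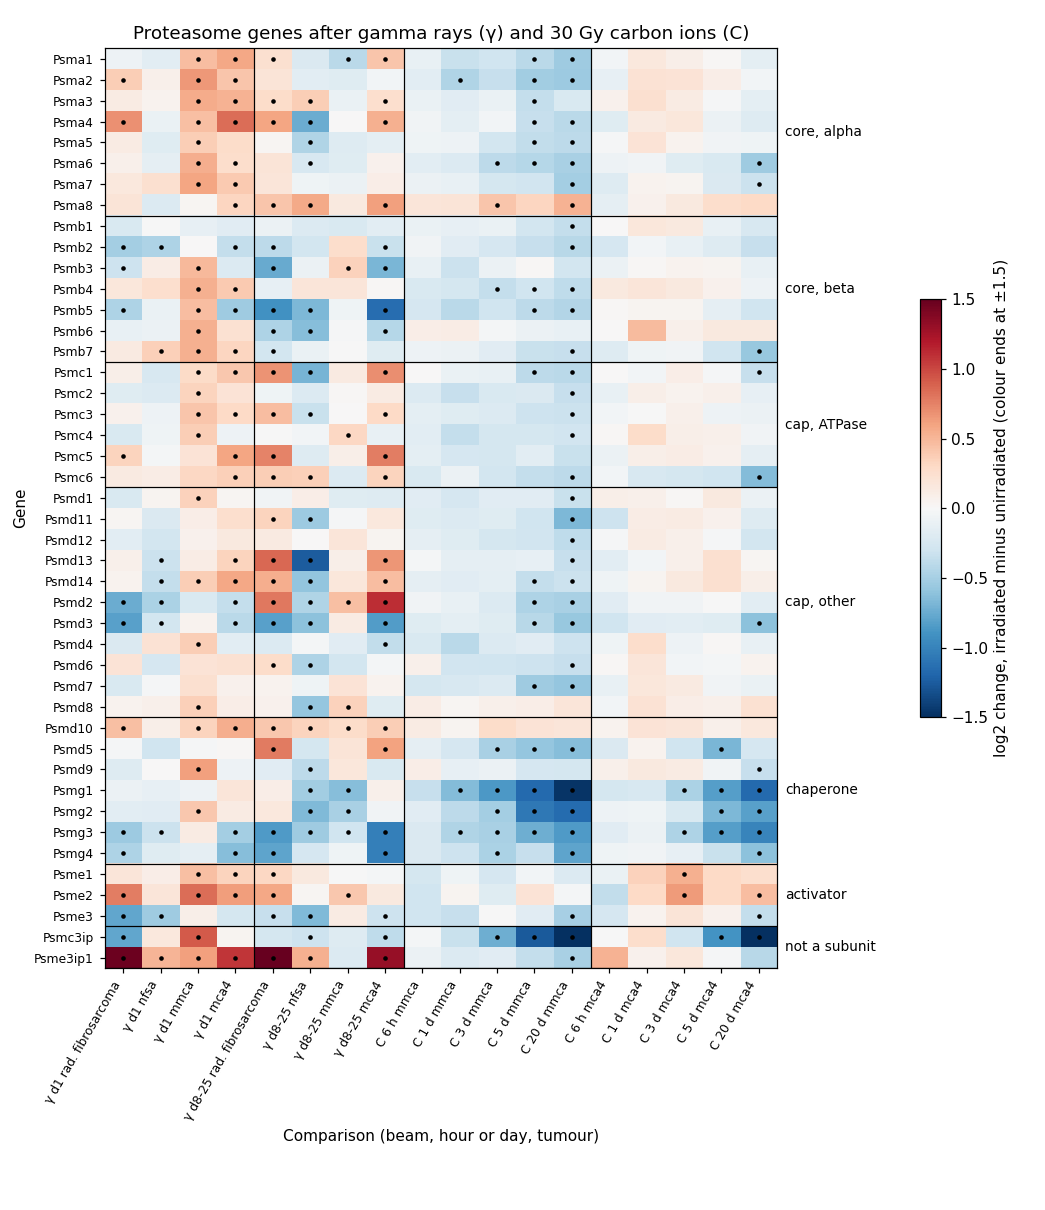
Colour gives the log2 change of each of the 44 tested genes (rows, by role) in irradiated against unirradiated arrays of the same tumour (columns, by beam, time and tumour), and a black dot marks an adjusted p under 0.05. Among the carbon columns Psmg1, Psmg2 and Psmg3 are lowest at day 20, at -1.47 for Psmg1 in mmca, and Psmd13 is -1.25 in nfsa but 0.86 in the radiation-induced fibrosarcoma late after gamma rays.

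Psme2, one of the pair of interferon-inducible activator subunits, changed most among the subunits. It had 4.97 at the lowest, 6.00 at the median and 6.79 at the highest on irradiated arrays, against 5.11 at the lowest, 5.33 at the median and 5.95 at the highest on unirradiated arrays. The pooled ranges overlapped, as they did for the other genes named for this mean, and the change was 0.60 ± 0.066 (SE, adjusted p = 2.14e-12). By tumour it was 0.83 (adjusted p = 7.14e-07) in mmca, 0.77 (adjusted p = 1.23e-06) in the radiation-induced fibrosarcoma, 0.62 (adjusted p = 8.05e-05) in mca4 and 0.18 (adjusted p = 0.319) in nfsa. In the first 3 of these tumours every irradiated array lay above every unirradiated one. Its partner Psme1 rose by 0.27 ± 0.058 (SE, adjusted p = 5.87e-05).

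Psma4, an alpha subunit of the core gate, ranged over 5.24 to 6.37 on irradiated arrays, against 4.60 to 6.02 on unirradiated arrays. It rose by 0.47 ± 0.053 (SE, adjusted p = 9.49e-12), and by 0.84 (adjusted p = 1.37e-09) in mca4 and 0.69 (adjusted p = 1.41e-07) in the radiation-induced fibrosarcoma, where arrays did not overlap. nfsa gave -0.10 (adjusted p = 0.51). Psma2 rose by 0.38 ± 0.059 (SE, adjusted p = 6.88e-08), with 6.83 to 7.81 on irradiated and 6.52 to 7.37 on unirradiated arrays.

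The 3 genes of the catalytic sites did not move alike. Psmb7 rose by 0.33 ± 0.061 (SE, adjusted p = 2.46e-06), with a median of 6.53 on irradiated arrays and 6.01 on unirradiated arrays. Psmb6 rose by 0.14 ± 0.062 (SE, adjusted p = 0.0422), and that call was lost in 15 of 32 fits that left out 1 array. Psmb5 changed by -0.16 ± 0.062 (SE, adjusted p = 0.0259), a mean of unlike tumours: it was -0.54 (adjusted p = 0.000313) in mca4, -0.46 (adjusted p = 0.00149) in the radiation-induced fibrosarcoma, -0.10 (adjusted p = 0.604) in nfsa and 0.46 (adjusted p = 0.00259) in mmca. At 30 Gy alone its mean was 0.14 (adjusted p = 0.104).

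Among cap genes, Psmd2 changed by -0.45 ± 0.058 (SE, adjusted p = 5.15e-10) and had 2.59 at the lowest, 3.43 at the median and 4.96 at the highest on irradiated arrays, against 3.29 at the lowest, 4.08 at the median and 4.90 at the highest on unirradiated ones. Psmd3, a cap scaffold gene, changed by -0.36 ± 0.051 (SE, adjusted p = 6.46e-09), with 5.05 to 5.68 on irradiated and 5.10 to 6.04 on unirradiated arrays. Psmd14 rose by 0.16 ± 0.054 (SE, adjusted p = 0.00907). This mean hides opposite signs, since Psmd14 rose in mca4 (0.57, adjusted p = 1.32e-05) and mmca (0.37, adjusted p = 0.00587) and fell in nfsa (-0.36, adjusted p = 0.00932).

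The core chaperone gene Psmg4 changed by -0.35 ± 0.063 (SE, adjusted p = 1.71e-06) and the nuclear activator gene Psme3 by -0.37 ± 0.067 (SE, adjusted p = 2.61e-06). Psmg4 had 4.40 to 5.64 on irradiated and 4.89 to 5.78 on unirradiated arrays, and Psme3 3.57 to 4.32 on irradiated and 3.93 to 4.77 on unirradiated arrays. Psme3 lacked a value on 1 of the 24 irradiated and 1 of the 8 unirradiated arrays, both of nfsa, where the control is then 1 array. Psme3ip1, which is no subunit, rose by 0.92 ± 0.087 (SE, adjusted p = 1.43e-14) from a dim probe, with -1.67 to 0.80 on irradiated and -2.12 to -0.022 on unirradiated arrays.

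By tumour, mmca had the most genes called higher and the fibrosarcomas the fewest. In mmca 27 of 44 genes rose (18% of all genes) and 0 fell (15% of all genes), with a median of 0.36 against 0.013 for all genes. The 27 included 7 of 8 alpha subunits (median 0.50) and 5 of 7 beta subunits (median 0.49), and Psma2 (0.65), Psmb6 (0.54), Psmb7 (0.53) and Psmc3ip (0.93) were among the largest. Without the first unirradiated array of day 1 there were 17 rises. Against the unirradiated arrays of day 9, 11 rose, none of them an alpha subunit, 1 fell and the median was 0.15, so the number of calls in mmca rests on the day 1 control pair. Against that control Psma2 changed by 0.19 (adjusted p = 0.207), Psmd14 by 0.19 (adjusted p = 0.178), Psme2 by 0.54, Psmb5 by 0.48, Psmb6 by 0.41, Psmb7 by 0.37 and Psmc3ip by 0.39. Macrophage markers moved with them, in 8 of 10 higher (summed intensity 224 to 260 on irradiated arrays, against 124 to 133 on unirradiated ones). Fibroblast markers were higher in 7 of 10 (85.6 to 228, against 52.4 to 56.3) and muscle markers in 5 of 11 (23.1 to 336, against 14.8 to 16.4). No summed marker value was at the floor, and the part of these cells was not tested.

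In mca4 19 genes rose (21.3% of all genes) and 6 fell (21.4%), again with 7 of 8 alpha subunits among the rises. The cap ATPase gene Psmc5 rose by 0.59 (adjusted p = 0.000121), while the chaperone genes Psmg4 and Psmg3 changed by -0.63 (adjusted p = 3.12e-05) and -0.51 (adjusted p = 8.69e-05). The change of Psmc5 was 0.32 without the second unirradiated mca4 array and 0.86 without the first. The 2 unirradiated mca4 arrays disagreed, for example in Psma4 with 5.26 and 4.60. Without the second of them 5 genes rose and the median change of 0.23 was 0.066, and without the first 24 rose and it was 0.42.

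The radiation-induced fibrosarcoma had 6 genes higher (18.5% of all genes) and 9 lower (32.4%), with a median of 0.0082. Besides Psme2 and Psma4, the cap chaperone gene Psmd10 rose (0.45, adjusted p = 5.28e-05), and Psmd3, Psme3 and Psmc3ip fell by 0.82, 0.78 and 0.78. Psmd3 had 5.21 and 5.18 at 30 Gy, 5.08 and 5.31 at 50 Gy and 5.19 and 5.21 at 70 Gy, against 5.99 and 6.04 without irradiation, and its arrays did not overlap. After quantile normalization 16 rose and 6 fell in this tumour, with a median of 0.18. At 30 Gy alone, on the deposited scale, 16 also rose and 6 fell, with a median of 0.12. Summed intensities of muscle markers were lower on irradiated arrays of the radiation-induced fibrosarcoma (310 to 385, against 591 to 643). They were higher in nfsa (891 to 1440, against 436 to 448), and the part of muscle was not tested. In nfsa 2 genes rose (9.32% of all genes) and 7 fell (19.7%). At 30 Gy alone 16 rose and 4 fell in nfsa, with a median of 0.22 in place of -0.09. Leaving out 1 array gave 0 to 2 rises and 1 to 7 falls, with 0 rises without either unirradiated array or the second of 50 Gy, and 3 and 1 falls without the first and the second unirradiated array. The rises were Psmb7 and Psme3ip1, each of which lost its call in 4 of 8 such fits, and the falls included Psmb2 (-0.46), Psmd14, Psmd2 and Psme3.

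The change at day 1 was tested between the tumour classes directly. It was lower in the fibrosarcomas than in the mammary carcinomas for 19 of 44 genes (17.5% of all genes) and higher for 0 (4.37%), with a median difference of -0.28 against -0.091 for all genes. The 19 were 6 of 8 alpha, 1 of 7 beta and 8 of 17 cap subunits, 2 chaperones, 1 activator and Psmc3ip. This number was 10 without the second unirradiated mca4 array and 25 without the first. With mmca set against its unirradiated arrays of day 9 it was 9, 0 of them alpha subunits, with 1 gene higher. Psma1 rose by 0.58 in mca4 and 0.46 in mmca, gave -0.078 and -0.16 in the radiation-induced fibrosarcoma and nfsa without passing the test, and differed between the classes by -0.64 ± 0.11 (SE, adjusted p = 1.78e-05). Against the day 9 arrays Psma1 gave -0.26 (adjusted p = 0.0707) in mmca and -0.28 (adjusted p = 0.0512) between the classes, so neither call held. Psmd14 differed by -0.63 ± 0.11 (SE, adjusted p = 1.4e-05), and by -0.54 with the day 9 arrays. The classes also differed before irradiation in the other direction, as given above, and both comparisons use the same unirradiated arrays.

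**Figure D2:**
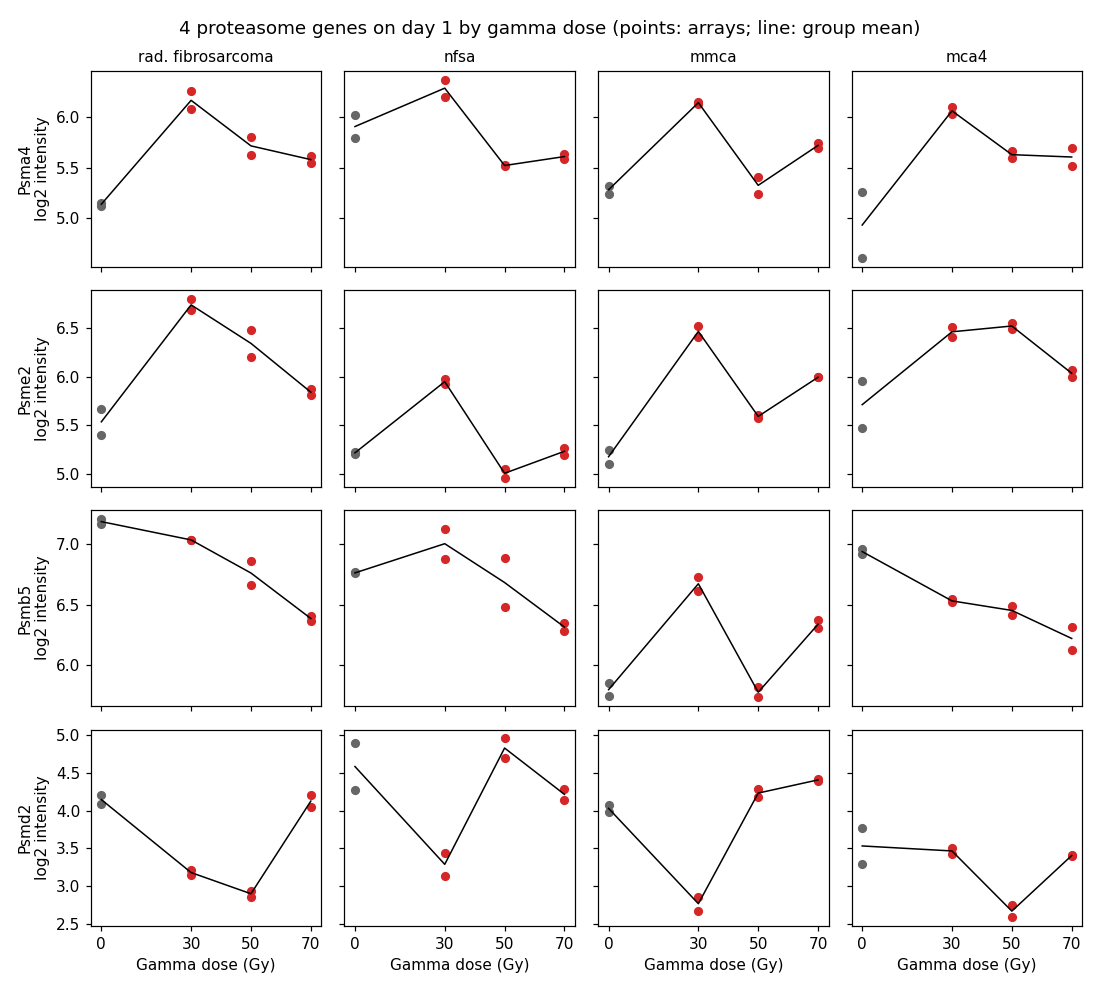
Points are arrays, at log2 intensity, of 4 genes (rows) in 4 tumours (columns) at day 1 against gamma dose in Gy, and lines join the group means. Psma4 and Psme2 are highest at 30 Gy in 7 of the 8 panels, and Psmd2 is low at 30 Gy in 3 tumours, for example 2.86 and 2.67 in mmca.

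Among doses, the proteasome genes stood highest at 30 Gy on the deposited scale. The median of the 44 genes, taken per array, had a median of 6.03 (5.64 to 6.11) at 0 Gy, 6.24 (6.06 to 6.37) at 30 Gy, 5.94 (5.75 to 6.16) at 50 Gy and 5.91 (5.85 to 6.08) at 70 Gy, with 8 arrays per dose. At 70 Gy against 30 Gy 3 genes were higher (23.7% of all genes) and 32 lower (26.5% of all genes), with a median of -0.34 against -0.0098 for all genes. The 32 included 7 of 8 alpha and 6 of 7 beta subunits and all 3 activators. This depended on the scaling of the arrays. After quantile normalization, which gives every array the same spread of values, 15 genes were higher and 4 lower, with a median of 0.067. Under that scaling 48.1% of all genes were higher and 8.62% lower, with a median of 0.17, so the median of the proteasome genes lay below that of all genes under both scalings. The 90th percentile of log2 intensity had a median of 5.08 on 70 Gy and 5.29 on 30 Gy arrays. Missing probes made up 10.38 to 11.41% on 70 Gy arrays and 13.6 to 15.28% on 30 Gy arrays, with no overlap. Dose and this difference between arrays cannot be told apart here.

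Psmb6 had 6.27 to 6.89 at 70 Gy, against 7.12 to 7.50 at 30 Gy, with no overlap. Its difference was -0.72 ± 0.077 (SE, adjusted p = 2.05e-12), and -0.19 after quantile normalization. Psmb3, Psmb1 and Psmb5, all of the beta rings, differed by -0.69, -0.62 and -0.50, also with arrays that did not overlap, and by -0.17, 0.056 and 0.12 after quantile normalization. Psmb7 (-0.44), Psmd14 (-0.28) and Psme1 (-0.46) likewise turned sign. Psme2 kept its direction, at -0.62 ± 0.08 (SE, adjusted p = 9.49e-10) and -0.16, and Psme3 gave -0.20 (adjusted p = 0.0314) and -0.052, with its call lost in 6 of 15 fits that left out 1 array.

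The 3 genes called higher at 70 Gy were higher under both scalings, neither of which separates dose from the difference in missing probes. Psmd2 differed by 0.86 ± 0.071 (SE, adjusted p = 2.3e-16), and by 1.02 after quantile normalization. It had 4.42 and 4.39 at 70 Gy and 2.86 and 2.67 at 30 Gy in mmca, but 3.40 and 3.41 at 70 Gy and 3.42 and 3.51 at 30 Gy in mca4, where it gave -0.061 (adjusted p = 0.817). Psme3ip1 differed by 0.58 ± 0.11 (SE, adjusted p = 4.59e-06) and the cap chaperone gene Psmd5 by 0.46 ± 0.079 (SE, adjusted p = 1.34e-06). The plot of the change under both scalings has these 3 genes apart from the rest.

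**Figure D3:**
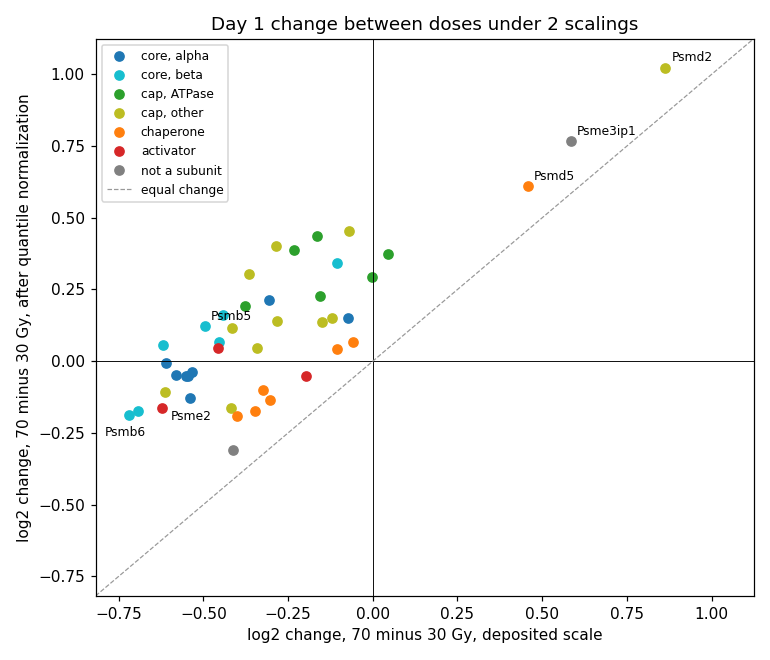
Each point is 1 of the 44 genes, coloured by role, at its log2 difference between 70 and 30 Gy at day 1 on the deposited scale (horizontal) and after quantile normalization (vertical); the dashed line marks equal values. All points lie above that line, and Psmd2 has the largest difference on both axes (0.86 and 1.02).

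Late after gamma rays, at days 8 to 25, the proteasome genes had no shared direction: cap ATPase genes rose or did not pass, beta subunit and core chaperone genes fell. Averaged over the 4 tumours, with 27 arrays after irradiation and 8 without (those of day 9 for mmca), 11 genes rose (34% of all genes) and 16 fell (39.6% of all genes), with a median of -0.023. Both shares lay near or below those of all genes. Of the beta subunits 6 of 7 fell and 0 rose, of the chaperones 5 of 7 fell and 2 rose, and of the cap ATPases 3 of 6 rose and 0 fell. After quantile normalization 22 rose and 11 fell, with a median of 0.11. For the radiation-induced fibrosarcoma, nfsa and mca4 the unirradiated arrays were of day 1. Irradiation and time therefore cannot be told apart in these tumours.

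Psmb5 changed by -0.70 ± 0.062 (SE, adjusted p = 1.25e-16), which was -1.14 (adjusted p = 1.63e-12) in mca4, -0.91 (adjusted p = 5.08e-10) in the radiation-induced fibrosarcoma, -0.67 (adjusted p = 3.99e-06) in nfsa and -0.069 (adjusted p = 0.69) in mmca. In mca4 it had 5.68, 5.91 and 5.85 at day 11 and 6.23, 5.51 and 5.63 at day 25, against 6.96 and 6.92 without irradiation. All irradiated arrays lay below the unirradiated ones in these first 3 tumours. In mmca, whose unirradiated level was the lowest of the 4 (5.75 and 5.83), irradiated and unirradiated arrays overlapped. The first 3 tumours had controls of day 1, and mmca had one of day 9. Psmb6 changed by -0.39 ± 0.062 (SE, adjusted p = 6.54e-08), with 6.11 to 6.80 on irradiated and 6.44 to 7.20 on unirradiated arrays. Psmb7 changed by -0.14 ± 0.06 (SE, adjusted p = 0.032), a call lost in 5 of 35 fits that left out 1 array, and gave 0.088 after quantile normalization.

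The core chaperone genes Psmg3 and Psmg4 changed by -0.68 ± 0.053 (SE, adjusted p = 6.74e-19) and -0.53 ± 0.062 (SE, adjusted p = 7.47e-12). Psmg3 had 4.19, 4.23 and 4.12 at day 8, 3.82, 3.89 and 3.49 at day 16 and 3.89, 3.49 and 3.63 at day 22 in the radiation-induced fibrosarcoma, against 4.65 and 4.77 unirradiated, and fell in all 4 tumours. Psmd3 changed by -0.54 ± 0.051 (SE, adjusted p = 1.76e-15) and Psme3 by -0.30 ± 0.066 (SE, adjusted p = 5.61e-05). Over all tumours Psmd3 had 4.83 to 5.43 on irradiated and 4.89 to 6.04 on unirradiated arrays, Psmg4 4.29 to 5.13 on irradiated and 4.51 to 5.78 on unirradiated arrays, and Psme3 3.63 to 4.54 on irradiated and 3.84 to 4.77 on unirradiated arrays. Each pair of ranges overlapped.

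The largest rises were those of Psme3ip1 (0.92 ± 0.086 SE, adjusted p = 2.07e-15), Psmd2 (0.47 ± 0.057 SE, adjusted p = 3.24e-11), Psma8 (0.44 ± 0.064 SE, adjusted p = 8.52e-09) and the ATPase gene Psmc5 (0.35 ± 0.063 SE, adjusted p = 1.05e-06). In the mean over tumours Psmd2 had fallen at day 1 and was higher late, but single tumours differed. Late in nfsa its group means were 4.17 after 30 Gy and 4.08 after 50 Gy, against 4.58 unirradiated. At day 1 its change in mmca was -0.23 (adjusted p = 0.126). In mca4 Psmd2 had 4.62, 4.75 and 4.88 at day 11 and 4.53, 4.55 and 4.46 at day 25, against 3.29 and 3.77 without irradiation. Psmc5 had 5.16 to 6.02 on irradiated and 4.74 to 5.71 on unirradiated arrays, and Psma8 -1.14 to -0.20 on irradiated and -1.75 to -0.75 on unirradiated arrays, near the limit of the filter on dim probes. Psme2 rose by 0.29 ± 0.065 (SE, adjusted p = 6e-05) and Psmd14 by 0.15 ± 0.054 (SE, adjusted p = 0.0122), while Psmb8 and Psmb9 rose by 0.30 and 0.39. The means of Psmb8 and Psmb9 hide opposite signs: group means were higher in the fibrosarcomas and lower in both mammary carcinomas. Psmb8 had 6.70, 6.63 and 6.65 in the radiation-induced fibrosarcoma, against 5.56 unirradiated. It had 6.56 and 6.85 in mmca, against 7.01, and 6.94 and 6.77 in mca4, against 7.14. T and NK cell markers were higher in 8 of 8 (summed intensity 6.7 to 171 on irradiated arrays, against 4.3 to 9.68) and macrophage markers in 9 of 10 (178 to 693, against 64.7 to 422), with no value at the floor, and their part in the proteasome changes was not tested.

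**Figure D4:**
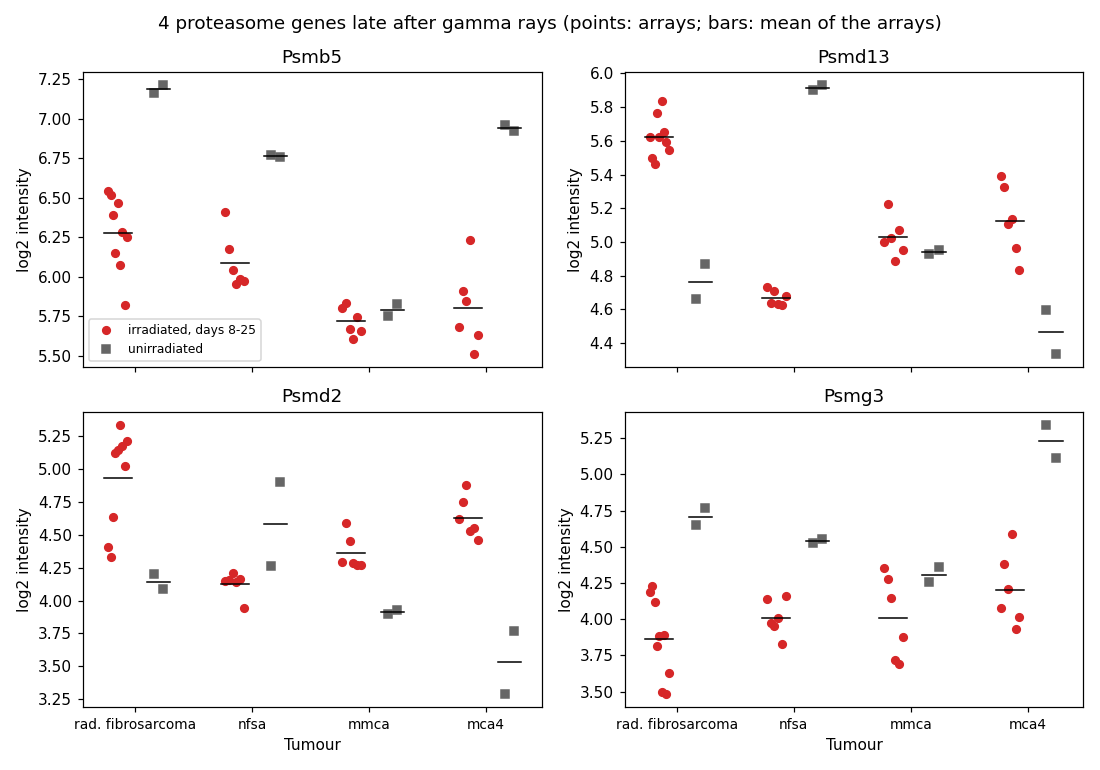
Red points (left in each tumour) give log2 intensity of 4 genes on single arrays of days 8 to 25 after gamma rays. Grey squares (right) are unirradiated arrays, of day 9 in mmca and of day 1 in the other tumours. Black bars are means of the arrays shown. Psmb5 lies below its control in 3 tumours, and Psmd13 lies below its control in nfsa and above it in the radiation-induced fibrosarcoma and mca4.

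nfsa differed from the other tumours late after gamma rays. It had 5 genes higher (24.5% of all genes) and 20 lower (33%), while the radiation-induced fibrosarcoma had 18 higher (28.1%) and 9 lower (39.5%), mca4 14 higher (28.6%) and 10 lower (35.1%), and mmca 6 higher (25.6%) and 4 lower (16.8%). After quantile normalization the numbers were 24 higher and 7 lower in mca4 (median 0.37 in place of 0.028), 11 and 5 in mmca, 24 and 7 in the radiation-induced fibrosarcoma, and 2 and 25 in nfsa. The difference was tested itself, in a comparison added after these values were seen. Controls were of day 1 in all tumours but mmca, so irradiation and time cannot be told apart in it. The change in nfsa was lower than the mean change of the other 3 tumours for 20 of 44 genes (26.9% of all genes) and higher for 1 (23.3%), with a median difference of -0.20 against 0.0014 for all genes. Without the first unirradiated nfsa array 12 were lower. The 20 were 9 of 17 cap subunits, 5 of 15 core subunits, 4 of 7 chaperones, Psme3 and 1 of the genes that are no subunits.

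Psmd13, a cap scaffold gene, showed this most. It had 4.73, 4.63 and 4.71 after 30 Gy and 4.63, 4.62 and 4.68 after 50 Gy in nfsa, against 5.90 and 5.93 in unirradiated nfsa. It was higher late in the radiation-induced fibrosarcoma (0.86, adjusted p = 8.55e-10) and mca4 (0.66, adjusted p = 1.86e-06), gave 0.089 (adjusted p = 0.581) in mmca, and differed between nfsa and the others by -1.78 ± 0.14 (SE, adjusted p = 8.62e-18). At day 1 the nfsa arrays of 30 Gy had 5.92 and 5.98, those of 50 Gy 5.74 and 5.46 and those of 70 Gy 5.22 and 5.24, and at day 4 the values were 5.03, 5.02 and 4.83 after 30 Gy and 4.54, 4.40 and 5.35 after 50 Gy. The differences of the ATPase gene Psmc1, of Psmd2, Psma4 and Psmd14 were -1.20, -1.24, -1.12 and -0.98. Those of Psme3 and Psmb6 were -0.49 (adjusted p = 0.0171) and -0.34 (adjusted p = 0.0432). That call of Psmb6 was lost in 9 of 35 fits that left out 1 array. Psmg4 was the 1 gene with a higher change in nfsa, at 0.38 (adjusted p = 0.0253). Psmb8 (0.69) and Psmb9 (0.85) rose in nfsa, where T and NK cell markers rose in 8 of 8 (median 2.62), and their part was not tested. The 2 doses differed: Psmb9 had group means of 3.59 after 30 Gy and 4.90 after 50 Gy, against 3.40 unirradiated. Psmb8 had 5.52 and 6.13, against 5.14.

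After 30 Gy of carbon ions, genes of the core chaperones fell over days, and few other genes of the proteasome were called before day 5. At hour 6, 0 genes were called in mmca (2.85% of all genes higher, 2.11% lower; 3 proteasome genes had an unadjusted p under 0.05) and 0 in mca4 (1.33% higher, 0.942% lower; 4 at an unadjusted p under 0.05) by limma. At day 1, 3 genes fell in mmca (3.56% of all genes) and 0 rose (2.06%), and 0 changed in mca4 (1.3% higher, 0.448% lower, 3 at an unadjusted p under 0.05). In the mean of both tumours at day 1, Psmg1 was the 1 gene called, at -0.45 ± 0.12 (SE, adjusted p = 0.00707) (3.83% of all genes lower, 4.17% higher), and that call was lost in 2 of 8 fits that left out 1 array.

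Day 3 brought 8 falls (20.2% of all genes) and 1 rise (13.3%) in mmca, and 2 falls (9.31%) and 2 rises (10.8%) in mca4. The rises in mca4 were the interferon-inducible activators Psme1 (0.54, adjusted p = 0.00339) and Psme2 (0.64, adjusted p = 0.00218). At day 5, 18 genes fell in mmca (32.3% of all genes) and 5 in mca4 (24.6%), with 0 rises in either (18% and 16.8% of all genes). At day 20, 33 fell in mmca (36.7%) and 1 rose (22.7%), while 13 fell in mca4 (36%) and 1 rose (24%). Quantile normalization left 8 falls and 2 rises in mmca and 5 falls and 2 rises in mca4 at day 5, and 12 falls and 3 rises in mmca and 9 falls and 2 rises in mca4 at day 20. The number of falls in mmca thus depended on the scaling, while at day 20 Psmg1, Psmg2, Psmg3 and Psmg4 stayed called lower in both tumours under both scalings.

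**Figure D5:**
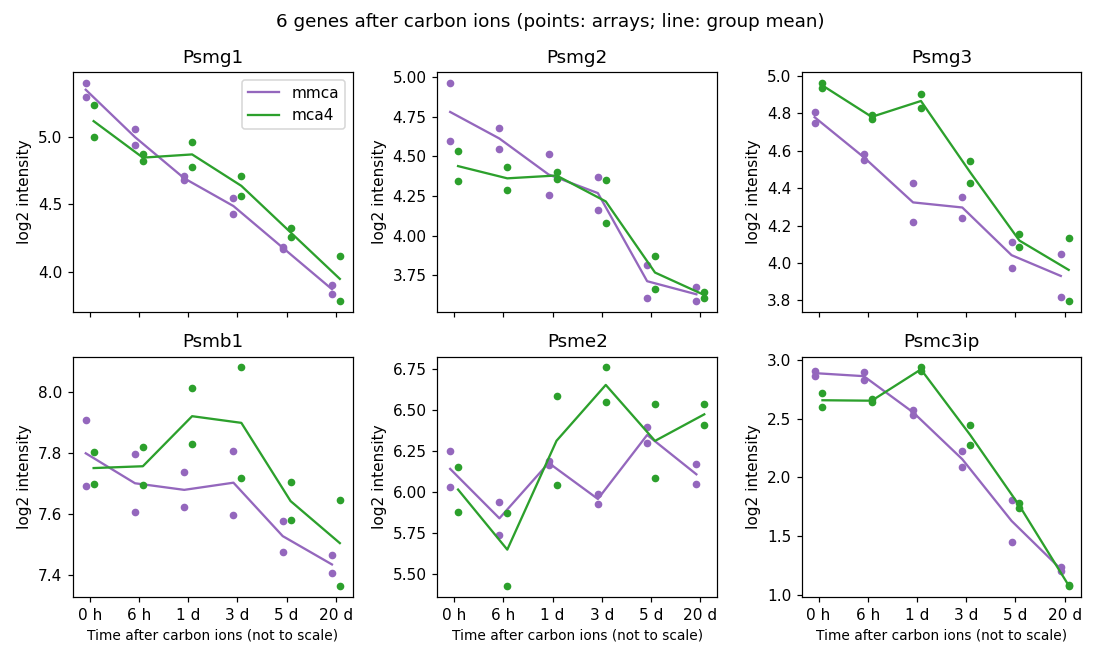
Log2 intensity of 6 genes on single arrays of mmca (purple) and mca4 (green) before and after 30 Gy of carbon ions, with lines through group means; the time axis is not to scale. Psmg1, Psmg2, Psmg3 and Psmc3ip are lower at day 5 and lower again at day 20 than at hour 0 in both tumours. The core gene Psmb1 takes that course with smaller falls, from 7.80 to 7.44 in mmca and from 7.75 to 7.51 in mca4 at day 20. The activator gene Psme2 does not share it.

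Psmg1, which pairs with Psmg2 to start the alpha ring, had 5.29 and 5.40 at hour 0, 4.94 and 5.05 at hour 6, 4.71 and 4.68 at day 1, 4.43 and 4.55 at day 3, 4.17 and 4.19 at day 5 and 3.84 and 3.91 at day 20 in mmca. In mca4 the values were 5.00 and 5.23 at hour 0, 4.82 and 4.87 at hour 6, 4.78 and 4.96 at day 1, 4.56 and 4.71 at day 3, 4.26 and 4.33 at day 5 and 4.12 and 3.78 at day 20. Every irradiated array lay below both unirradiated arrays of its tumour. The change was -0.99 ± 0.12 (SE, adjusted p = 1.49e-11) in the mean of both tumours at day 5, and at day 20 -1.47 in mmca and -1.16 in mca4.

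Psmg2 had 3.61 and 3.82 in mmca and 3.87 and 3.66 in mca4 at day 5, against 4.60 and 4.97 in mmca and 4.35 and 4.53 in mca4 at hour 0, a change of -0.87 ± 0.11 (SE, adjusted p = 4.32e-10). Psmg3 had 3.97 and 4.11 in mmca and 4.15 and 4.09 in mca4 at day 5, against 4.81 and 4.75 in mmca and 4.96 and 4.93 in mca4, a change of -0.78 ± 0.093 (SE, adjusted p = 2.97e-11). No array of day 5 overlapped with hour 0 for either gene. After quantile normalization the day 5 changes of Psmg1, Psmg2 and Psmg3 were -0.85, -0.74 and -0.65. Psmg4 gave -0.35 (adjusted p = 0.0517) in mmca and -0.33 (adjusted p = 0.158) in mca4 at day 5, and at day 20 -0.79 and -0.62, both called.

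In the mean of both tumours at day 5, 17 of 44 genes fell (38.5% of all genes) and 1 rose (22.1% of all genes), a share close to that of all genes, with a median of -0.19 against -0.12. After quantile normalization 6 fell and 5 rose, and 10 fell without the second unirradiated mmca array or without the first of mca4. They were 5 of 7 chaperones (median -0.63), 3 of 8 alpha, 3 of 7 beta and 5 of 17 cap subunits, and Psmc3ip. Of the catalytic genes Psmb5 changed by -0.27 ± 0.11 (SE, adjusted p = 0.0286) and Psmb7 by -0.32 ± 0.10 (SE, adjusted p = 0.00677), calls that were lost in 6 and 2 of 8 fits that left out 1 array. Psmb5 had 5.71 and 5.71 in mmca and 6.11 and 5.74 in mca4 at day 5, against 5.95 and 6.26 in mmca and 6.07 and 6.05 in mca4 at hour 0, and Psmb7 5.90 and 6.08 in mmca and 6.15 and 5.94 in mca4, against 6.16 and 6.49 in mmca and 6.50 and 6.20 in mca4. Psma8, from a dim probe, rose by 0.29 ± 0.11 (SE, adjusted p = 0.021) (not called in 3 of those 8 fits), and Psmb8 and Psmb9 gave 0.16 (adjusted p = 0.265) and 0.26 (adjusted p = 0.199).

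The largest fall was that of Psmc3ip, the meiotic recombination gene that is no subunit. It had 1.24 and 1.20 in mmca and 1.08 and 1.07 in mca4 at day 20, against 2.87 and 2.91 in mmca and 2.60 and 2.72 in mca4 at hour 0, and changed by -1.08 ± 0.11 (SE, adjusted p = 2.28e-13) at day 5. Macrophage markers had risen at day 5 in 10 of 10 (summed intensity 483 to 662 at day 5, against 233 to 255 at hour 0) and T and NK cell markers in 8 of 8 (19.8 to 31, against 5.89 to 9.35), with no value at the floor. Epithelial markers were higher in 5 of 7 (414 to 460, against 232 to 283). The part of these cell types in the falls was not tested.

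The difference in change between mmca and mca4 over days 1 to 5 was then tested itself, and was called for 0 genes by limma (0.178% of all genes lower, 0.394% higher). At an unadjusted p under 0.05 there were 13, and the median difference was -0.28. The activator gene Psme2 was higher in mca4 at day 20, at 0.46 ± 0.16 (SE, adjusted p = 0.0117), with 6.53 and 6.41 against 6.15 and 5.88 at hour 0, and gave -0.033 (adjusted p = 0.874) in mmca.

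Both beams were used at 30 Gy and day 1 in mmca and mca4, each with its own unirradiated arrays. Gamma rays gave 30 genes higher (22.2% of all genes) and 2 lower (22.4%) in these 2 tumours, where carbon ions gave 0 higher and 1 lower. The change after carbon ions was lower than after gamma rays for 29 of 44 genes (13.6% of all genes) and higher for 1 (11.9%), with a median difference of -0.46 against 0.0056 for all genes. The 29 were 7 of 8 alpha subunits (median -0.79), 5 of 7 beta subunits, 6 of 6 cap ATPases, 4 of 11 other cap subunits, 3 of 7 chaperones, 2 of 3 activators and both genes that are no subunits. After quantile normalization 23 were lower and 1 higher (median -0.35), and with the day 9 control of mmca 18 were lower (median -0.35). Beam, experiment and control arrays change together here and cannot be told apart.

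Psma4 had 5.48 and 5.66 in mmca and 5.58 and 5.76 in mca4 at day 1 after carbon ions, against 5.72 and 5.72 in mmca and 5.58 and 5.51 in mca4 at hour 0. After gamma rays it had 6.15 and 6.14 in mmca and 6.10 and 6.03 in mca4, against 5.24 and 5.32 in mmca and 5.26 and 4.60 in mca4. Its change differed between the beams by -1.01 ± 0.13 (SE, adjusted p = 2.25e-08), that of Psma2 by -0.91, that of Psme2 by -0.85 ± 0.16 (SE, adjusted p = 4.93e-05) and that of Psme1 by -0.42. The catalytic genes Psmb5, Psmb6 and Psmb7 differed by -0.42 (adjusted p = 0.0342), -0.40 (adjusted p = 0.047) and -0.73 (adjusted p = 0.000141), and Psmd14 by -0.69. The call of Psmb6 was lost in 13 of 16 fits that left out 1 array, that of Psmb5 in 9 and that of Psme1 in 5. Psmc3ip and Psme3ip1 differed by -0.85 and -1.01, and Psmd2 was the 1 gene with a higher change after carbon ions (0.58 ± 0.14 SE, adjusted p = 0.00134).

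Over 6 tumours, the last carbon time was set against day 5, since 4 of them had no unirradiated carbon arrays. 7 genes were higher at the last time (27.2% of all genes) and 1 lower (16.4% of all genes), both shares below those of all genes. After quantile normalization 2 were higher and 5 lower. Psmc3ip (0.29), Psmd5 (0.27), Psma3 (0.18) and the cap scaffold gene Psmd12 (0.18) were higher and Psme2 was lower (-0.18, adjusted p = 0.0233), a call lost in 6 of 24 fits that left out 1 array. In nrs1 24 of 44 were higher at day 20 (24.5% of all genes) and 0 lower (11.2%), with 6 of 7 chaperones and 6 of 8 alpha subunits among them. Psma1 had 7.13 and 7.13 at day 20 and 6.68 and 6.65 at day 5 in nrs1. After quantile normalization 4 were higher there, so that this count also rested on the scaling.

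The radiation-induced fibrosarcoma had 12 genes higher (28% of all genes) and 3 lower (16.9%) at the last carbon time (4 and 3 after quantile normalization), nfsa 4 higher (12.1%) and 0 lower (7.78%), and scc7 3 of each (15.5% and 17%). mca4 had 1 higher (7.37%) and 3 lower (8.11%), and mmca 0 of each by limma (4.32% and 4.1% of all genes, 4 proteasome genes at an unadjusted p under 0.05). After gamma rays, scc7 at days 23 and 35 against day 8 had 0 genes called by limma (1.86% of all genes higher, 0.937% lower, 1 proteasome gene at an unadjusted p under 0.05). nrs1 at day 15 against day 8 had 2 higher (3.29%) and 7 lower (9.47%), and 2 and 0 after quantile normalization. Dose changes with time in both, from 30 to 50 Gy.

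27 genes around the proteasome (ubiquitin supply, conjugation, delivery, deubiquitination and control) were read beside it. At day 1 after gamma rays 8 rose and 9 fell (24.8% and 34.7% of all genes), the largest being Nfe2l2, a stress transcription factor, at 0.39 ± 0.057 (SE, adjusted p = 1.95e-08) and Ngly1, the glycanase that activates Nfe2l1, at 0.34 ± 0.056 (SE, adjusted p = 3e-07), and in the other direction Nploc4 (-0.47) and Ubqln1 (-0.46), which deliver ubiquitin-tagged proteins. Late after gamma rays 9 rose and 9 fell (34% and 39.6% of all genes), again led by Nfe2l2 (0.85) and Ngly1 (0.80), with Ube2d1 (-0.62), a ubiquitin-conjugating enzyme gene, and the deubiquitinase gene Uchl1 (-0.51) lowest. At day 5 after carbon ions 5 rose and 13 fell (22.1% and 38.5% of all genes): Ngly1 (0.63) and Uchl1 (0.50) rose most, and the ligase scaffold gene Cul1 (-0.72) and Uchl5 (-0.59), which encodes a deubiquitinase of the cap, fell most. Nfe2l1 itself gave -0.20 (adjusted p = 0.00429) at day 1 and 0.45 (adjusted p = 1.53e-09) late after gamma rays, and 0.41 (adjusted p = 0.000878) at day 5 after carbon ions.

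The arrays differed in the number of missing probes, at 9.99 to 18.6% on gamma and 0.541 to 4.92% on carbon arrays. Of the tested genes 34 had a value on every array, and no other lacked more than 4. Arrays of a group correlated at r of 0.9598 to 0.9985 over all genes. 5 genes had further probes: that of Psmb4 followed the first (r of 0.48 over 120 arrays), while those of Psmd11, Psmd12, Psmc4 and Psme1 were dim and gave r of -0.31 to 0.26. Read on its second probe, Psme1 gave -0.35 in place of 0.46 in mmca at day 1, so the values of Psme1 rest on 1 bright probe.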

How the data were processed

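Per the labels, total RNA was extracted with ISOGEN and RNeasy, labelled with Cy5 and hybridised to CodeLink arrays. The authors deposited 1 intensity per probe and array, on a linear scale with array medians of 1.03 to 1.85; how they were normalized, background-corrected and filtered is not given in the sources used here. Missing values stayed missing, and a floor of 0.1269, at the 5th percentile of all values above 0, was applied before log2. Of 36227 probes, 21615 carried 1 gene symbol in the platform annotation. Probes needed values on 90% of arrays and a mean above the 20th percentile, and the brightest probe stood for its gene, leaving 12962 genes. All 46 symbols were found in RefSeq through their Entrez identifier.

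limma 3.58.1 in R 4.3.3 fitted 1 model of 54 group means over 121 arrays (67 residual degrees of freedom, with a mean-variance trend). The 70 comparisons were 2-sided contrasts with Benjamini-Hochberg adjustment over all genes, and means over tumours weight tumours equally. Python 3.11.15 with matplotlib 3.10.9 drew the figures. In each main comparison the text names the 4 largest rises and 4 largest falls called, and Psmb5, Psmb6, Psmb7, Psmd14, Psme1, Psme2 and Psme3 where called; other genes appear to account for every member or to show single tumours. The genes, lists and comparisons were chosen with earlier results of these data known. On simulated data of this design, 40 of 8689 genes were raised at each size. Changes of 0.5 log2 were recovered for 100% of genes in the gamma day 1 mean and 70% in mmca at gamma day 1. The share was 60% in the carbon day 5 mean, 47.5% in mmca at carbon day 20 and 22.5% between beams at day 1. Noise was drawn independently for each array, without the differences in array brightness that these data hold. The number of arrays per group, 2 or 3, limits the precision. Alternatives were another scaling, another treatment of missing values, floor, dim probes, second probes, variance settings, replicate blocks, controls and doses, 1 value per group, and leaving out tumours or arrays. Whether equal replicate numbers pair arrays was checked from the correlation of replicate deviations: it exceeded 0.1 in 15 of 15 pairs of carbon groups for mca4 and 12 of 15 for mmca.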

Additional observations from a re-analysis of the deposited data

Results flagged for a closer look

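3 differences between groups were tested as such and found in some proteasome genes, on limma contrasts of 2 changes; no explanation was tested for any of them.

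The change at day 1 after gamma rays was lower in the fibrosarcomas than in the mammary carcinomas for 19 genes and higher for 0. This number was 10 without the second unirradiated mca4 array and 25 without the first, and 9 with the day 9 control of mmca, where Psma1 (-0.28, adjusted p = 0.0512) was not called. The log2 difference was -0.80 for Psmc3ip, -0.64 for Psma1, -0.63 for Psmd14, -0.57 for Psme3 and -0.48 for Psmb6.

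Carbon ions and gamma rays, both at 30 Gy and day 1 in mmca and mca4, differed in 30 genes, of which 1 had the higher change after carbon ions (Psmd2, 0.58) and 29 the lower. The differences were -1.01 for Psma4 and for Psme3ip1, -0.91 for Psma2, -0.85 for Psmc3ip, -0.85 for Psme2 (-0.845), -0.73 for Psmb7, -0.69 for Psmd14, -0.42 for Psme1, -0.42 for Psmb5 (-0.419) and -0.40 for Psmb6.

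Late after gamma rays the change in nfsa differed from the mean change of the other 3 tumours in 21 genes, in a comparison chosen after the data were seen: 1 was higher (Psmg4, 0.38) and 20 were lower, or 12 without the first unirradiated nfsa array. Psmd13 differed by -1.78, Psmd2 by -1.24, Psmc1 by -1.20, Psma4 by -1.12, Psmd14 by -0.98, Psme3 by -0.49 and Psmb6 by -0.34. Controls were of day 1 in all tumours but mmca, so irradiation and time cannot be told apart.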

How the results depend on the processing

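After quantile normalization the median change of the proteasome genes was 0.067 for 70 against 30 Gy (reversed from -0.34), 0.18 in the radiation-induced fibrosarcoma at day 1, 0.11 late after gamma rays, -0.018 at carbon day 5, -0.076 for mmca against mca4, -0.35 for carbon ions against gamma rays and -0.47 for nfsa against the other tumours. At 70 against 30 Gy it reversed Psmb1 (0.056), Psmb5 (0.12), Psmb7 (0.16), Psmd14 (0.14) and Psme1 (0.045), and late after gamma rays Psmb7 (0.088). With missing values at the floor as well, these medians were 0.068, 0.16, 0.13, 0.0054 (reversed), -0.11, -0.34 and -0.39, and 0.16 for unirradiated fibrosarcomas against mammary carcinomas. Under that setting Psmb1 (0.026), Psmb5 (0.069), Psmb7 (0.11), Psmd14 (0.080), Psme1 (0.0062) and Psmb3 (1.06) reversed at 70 against 30 Gy and Psmb7 (0.10) late. Psme3, whose missing arrays then count as dim, reversed at day 1 in the mean (0.34), in nfsa (2.08), between classes (0.82) and between doses (0.72), late (0.40), in unirradiated tumours (-1.58) and in nfsa against the others (3.57).

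On second probes Psme1 reversed in mmca at day 1 (-0.35), between doses (0.10) and between beams (0.090), and Psmd12 at the last carbon time (-0.022). The carbon day 1 and day 5 medians were 0.081 and -0.018 in mca4 alone and -0.19 and -0.32 in mmca alone. At 30 Gy alone the day 1 medians were 0.12 in the radiation-induced fibrosarcoma, 0.22 in nfsa and 0.31 in the mean, where Psmb5 reversed (0.14). Against the day 9 control, an alternative chosen after seeing the data, the mmca median was 0.15, that of carbon ions against gamma rays -0.35, and Psme3ip1 reversed in mmca (-0.11). The causes were not tested.

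Leaving out 1 array moved the median between 0.066 and 0.42 in mca4 at day 1, the extremes being its 2 unirradiated arrays. At day 1 after gamma rays the range was 0.059 to 0.14 in the mean, -0.091 to 0.063 in the radiation-induced fibrosarcoma, 0.33 to 0.38 in mmca, -0.13 to -0.053 in nfsa, -0.37 to -0.32 between doses and -0.37 to -0.23 between classes. It was -0.061 to 0.025 late, -0.25 to -0.17 for nfsa against the others, 0.24 to 0.38 in unirradiated tumours, -0.12 to -0.030 at carbon day 1, -0.24 to -0.11 at day 5, 0.046 to 0.083 at the last time, -0.36 to -0.19 for mmca against mca4 and -0.55 to -0.41 between beams. With the replicate block 29 of 30 counts stayed within 1.5 times (falls in unirradiated fibrosarcomas against mammary carcinomas were 2 in place of 1), and Psmb7 late lost its call (-0.12, adjusted p = 0.0763); it changed no other call of the named genes. With 1 value per group, which takes the spread from an additive model, 102 of 117 named changes lost their call. The floor at the 10th percentile and the variance trend moved no median beyond the spread between replicates.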
